A study of Homo sapiens with 9 samples.

Results

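The nonsense-mediated decay (NMD) factors examined here were the 9 genes *UPF1*, *UPF2*, *UPF3A*, *UPF3B*, *SMG1*, *SMG5*, *SMG6*, *SMG8* and *SMG9*, chosen by name out of the 54562 Ensembl genes measured. All 9 were matched to an identifier, and all 9 were among the 13801 genes tested, those whose FPKM averaged at least 1.

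NMD is the pathway that degrades mRNAs on which translation stops too early. The RNA helicase UPF1 is recruited to the terminating ribosome, and UPF2 together with UPF3A or UPF3B links it to the exon junction complex left by splicing. The kinase SMG1, which is controlled by its subunits SMG8 and SMG9, phosphorylates UPF1. Phosphorylated UPF1 is bound by SMG5 and SMG6, and SMG6 cuts the mRNA. Exons derived from *Alu* elements often bring in premature stop codons, so many of the transcripts that include them are substrates of this pathway. Several NMD factor mRNAs, including those of *SMG5* and *UPF3B*, are themselves known substrates.

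RNA-seq was performed on HEK293 cells, a human embryonic kidney cell line, after transient transfection with the empty vector (EV) or with a plasmid carrying the cDNA of *ADARB1*, which encodes the adenosine-to-inosine editing enzyme ADAR2. The cDNA was either the *Alu* exon skipping isoform (Short) or the *Alu* exon inclusion isoform (Long), and all groups received a lipid transfection reagent. Polyadenylated RNA was taken 48 hours after transfection from 3 cell passages, which gave 3 libraries per group and 9 in total. Replicate numbers 1 to 3 are called passages 1 to 3 below. Levels are in FPKM (fragments per kilobase of gene length, relative to the library's mapped fragments), which can be compared between genes. The passages belong to 1 cell line, so the spread between libraries is that of cultures of this line, and in bulk RNA a smaller number of transfected cells and less RNA per cell cannot be told apart.

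The FPKM values of a library summed to 517170 to 541348 in EV, 533531 to 589535 in Short and 544461 to 567585 in Long. Every Long library was thus above every EV library in its sum. The number of fragments sequenced was not given in the sources used here. *ADARB1* was listed at 7.66 to 8.61 FPKM in EV, 1889 to 4145 in Short and 1695 to 3449 in Long. In the fit across all genes (limma with Benjamini-Hochberg adjustment) it rose by 8.26 on the log2 scale in Short (adjusted p = 1.579e-09) and by 7.99 in Long (adjusted p = 2.226e-09). The HEK293 markers *VIM*, *NEFM*, *KRT8* and *KRT18* stood between 48.6 and 216.3 FPKM in every library, and *PAX2* between 1.73 and 2.87 FPKM. Of 5 matched markers of other cells, *HBB* was listed at 0 in every library, *PTPRC*, *ALB* and *LYZ* were at most 0.326 FPKM, and *COL1A1*, a fibroblast collagen, was 9.10 to 12.9 FPKM. *KRT8* was the only marker that passed in any comparison (0.20 on the log2 scale in Long, adjusted p = 0.04987, passed in 2 of 13 alternatives).

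The coding sequences of the 9 genes differed widely in base composition. The changes described below were compared with the GC content of the longest annotated transcript, not with that of the coding sequence. Windows of 60 nt are printed for 2 GC-rich and 2 GC-poor factors, so that the difference can be seen. In the coding sequence of each, the window is the first in-frame one within 1 exon whose GC content is nearest to that of the whole coding sequence. They are read 5′ to 3′ on the strand of the gene from GRCh37, with G and C in capitals, and they lie in exon 1 of *UPF1* (chr19:18943079-18943138, plus strand), exon 3 of *SMG5* (chr1:156247779-156247838, minus strand), exon 2 of *UPF2* (chr10:12077363-12077422, minus strand) and exon 2 of *UPF3B* (chrX:118985753-118985812, minus strand).
UPF1: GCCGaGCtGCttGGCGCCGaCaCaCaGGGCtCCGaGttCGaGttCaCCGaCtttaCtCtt
SMG5: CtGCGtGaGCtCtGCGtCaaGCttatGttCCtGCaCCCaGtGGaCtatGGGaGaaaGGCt
UPF2: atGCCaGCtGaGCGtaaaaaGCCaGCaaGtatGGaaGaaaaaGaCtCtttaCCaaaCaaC
UPF3B: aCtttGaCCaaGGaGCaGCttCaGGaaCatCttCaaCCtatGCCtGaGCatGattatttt
G and C made up 36 of the 60 bases in the *UPF1* window, 33 in that of *SMG5* and 25 in those of *UPF2* and *UPF3B*. At the third codon position, where the base can often change without changing the protein, *UPF1* had G or C in 80.5% of codons, *SMG5* in 65.1%, *UPF3B* in 40.2% and *UPF2* in 38.5%.

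The main annotated transcripts of the 9 genes (GENCODE on GRCh37) range from 2343 nt and 11 exons in *UPF3B* (chrX:118967985-118986961) to 16062 nt and 63 exons in *SMG1* (chr16:18816182-18937730). *UPF1* (chr19:18942768-18979039) has 24 exons, *UPF2* (chr10:11962021-12085169) 22, *UPF3A* (chr13:115047076-115071292) 10 and *SMG5* (chr1:156219015-156252616) 22. *SMG6* (chr17:1963133-2207079) has 19 exons, *SMG8* (chr17:57286761-57292600) 4 and *SMG9* (chr19:44232135-44259114) 14. The 3′ untranslated region of *SMG9* is longer than its coding region, at 3613 nt against 1560 nt. Of the 9 genes, 4 have at least 1 transcript annotated as an NMD substrate (*UPF1*, *SMG1*, *SMG8* and *SMG9*), compared with 48.1% of the 12089 protein-coding genes tested.

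*SMG1* and *UPF3A* have near copies in the genome, so their FPKM values are less certain than those of the other factors. Of all 100-nt windows of the *SMG1* transcript, 11.04% were found unchanged in 19 other annotated genes, among them the copies *SMG1P1* to *SMG1P7*. The window held by the largest number of other genes, 13, lies in exon 22 of *SMG1* (chr16:18879537-18879636, minus strand) and is printed to show how long a read can be and still fit several genes.
SMG1: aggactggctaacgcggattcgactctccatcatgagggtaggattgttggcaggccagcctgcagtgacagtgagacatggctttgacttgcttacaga
For *UPF3A* the share was 25.9%, all of it in the pseudogenes *UPF3AP1* and *UPF3AP2*, which were listed at 1.43 to 2.20 and 1.62 to 3.89 FPKM. In *SMG8* 10.5% of the windows were shared with an overlapping gene on the same strand that is not listed in the table. The other 6 factors shared no window. *HIC1* on the opposite strand overlaps 29.8% of the *SMG6* transcript and averaged 0.397 FPKM over the 9 libraries.

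In EV cells all 9 factors were expressed at middle to upper levels, from 9.62 FPKM for *UPF2* to 34.8 FPKM for *UPF1*, where the median was 11.6 FPKM for the 13815 genes that averaged at least 1 FPKM in EV. The order was *UPF1* (34.8 ± 2.52 FPKM, SD, n = 3, as for the following), *SMG5* (33.9 ± 1.23), *UPF3A* (20.2 ± 1.32), *SMG1* (16.5 ± 1.83), *SMG9* (14.7 ± 0.423), *UPF3B* (14.2 ± 2.37), *SMG8* (13.1 ± 0.922), *SMG6* (12.5 ± 0.529) and *UPF2* (9.62 ± 2.20). The ranges of neighbours in this order overlapped for *UPF1* and *SMG5*, and for every neighbouring pair from *SMG9* down to *UPF2*. They did not overlap for *SMG5* and *UPF3A*, *UPF3A* and *SMG1*, or *SMG1* and *SMG9*. Thus the helicase and the effector *SMG5* had the largest levels, and *UPF2* had the lowest, above 44.2% of those genes.

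**Figure D1:**
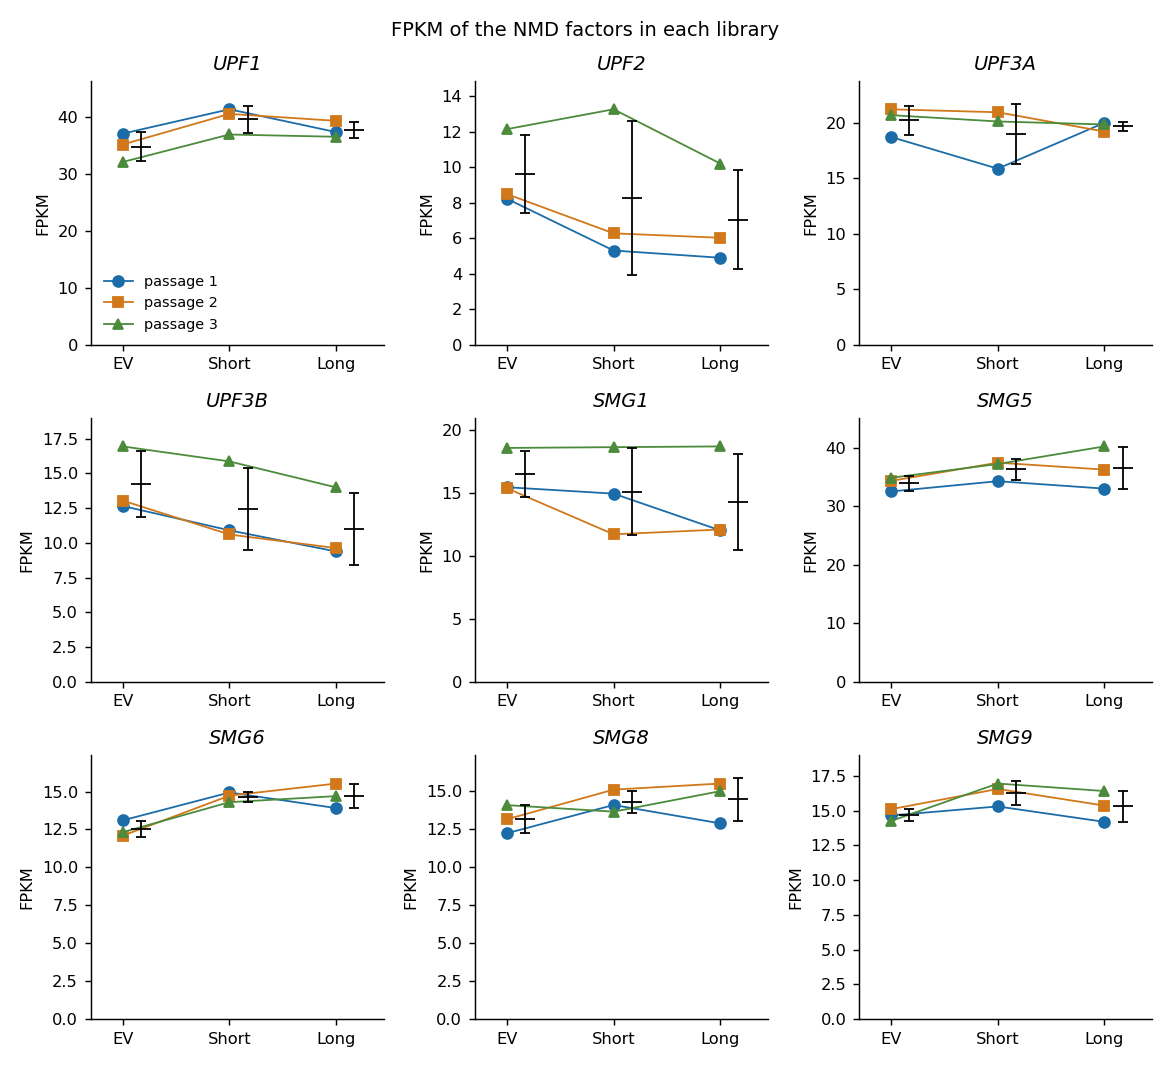
FPKM of each of the 9 NMD factors (y axis, from 0) in EV, Short and Long (x axis), with 1 symbol and line per passage and the mean ± SD (n = 3) in black. *UPF2*, *UPF3B* and *SMG1* were highest in passage 3 in every group, and *UPF2* and *UPF3B* were lower in Long than in EV in each of the 3 passages.

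Which NMD factors changed with each ADARB1 isoform was examined with 1 fit across all genes tested, paired by passage. In Long cells *UPF2*, the bridge between UPF1 and UPF3, and *UPF3B*, the X-linked UPF3 gene, were lower than in EV, by 29.2% and 23.3% on average over the passages, and no other factor passed the threshold. In Short cells none of the 9 passed. None passed between Long and Short. The count in Long was 2 of 9, both lower, where 8.32% of all genes tested passed in this comparison (6.33% lower and 1.99% higher). In Short 0 of 9 passed, where 0.0362% of all genes did (5 genes). At an unadjusted p under 0.05, 2 factors were higher in Short (*UPF1* and *SMG6*, where 15.2% of all genes were) and 2 were lower (*UPF2* and *UPF3B*, where 6.88% were). At the same unadjusted threshold 1 factor was higher in Long (*SMG6*, background 12.4%) and 3 were lower (*UPF2*, *UPF3B* and *SMG1*, background 12%). For Long against Short 0 of 9 passed, where 1 gene (0.00725%) did, and 1 factor was lower at an unadjusted p under 0.05 (*UPF3B*, background 5.93%). The 2 comparisons with EV share the EV libraries. Of all genes tested in Long, 275 were higher and 873 lower, and with libraries scaled to the same FPKM sum 57 were higher and 1222 lower.

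The median log2 fold change of the 9 factors was 0.096 in Short and 0.057 in Long, compared with 0.041 and 0.039 for all genes tested. It was -0.067 between Long and Short, compared with -0.019. In Short 4 factors were higher in each of the 3 passages (background 32%) and 2 were lower in each (background 13.4%). In Long the counts were 4 (background 27.4%) and 2 (background 18.1%). Between Long and Short 4 factors were lower in each passage (background 18.5%), which were *UPF1*, *UPF2*, *UPF3B* and *SMG9*, and the Long and Short libraries overlapped for all 9 (3.83% of all genes did not overlap).

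**Figure D2:**
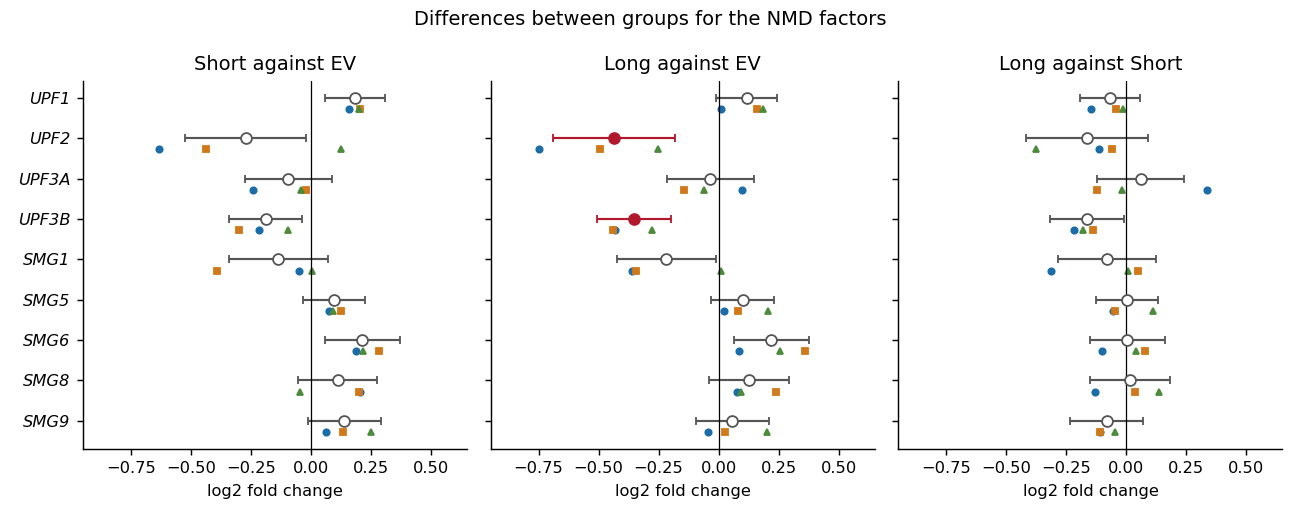
Log2 fold change of the 9 NMD factors in the 3 comparisons, with large circles and bars for the fitted value and its 95% confidence interval on log2(FPKM + 1), filled red where the adjusted p was under 0.05. Small symbols under each bar are the log2 ratios of FPKM within passage 1 (circle), 2 (square) and 3 (triangle). Only *UPF2* and *UPF3B* in Long against EV are filled, and all their 3 passages lie below 0.

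*UPF1* encodes the ATP-dependent helicase at the centre of the pathway. Its level was 37.1, 35.2 and 32.1 FPKM in EV passages 1, 2 and 3, 41.3, 40.5 and 36.9 FPKM in Short, and 37.3, 39.3 and 36.5 FPKM in Long. Passage 3 was the lowest in every group, and the Short and Long libraries overlapped with EV because EV passage 1 was above passage 3 of both. The fitted difference on the log2 scale was 0.18 ± 0.057 (SE) in Short (adjusted p = 0.1231) and 0.12 ± 0.057 in Long (adjusted p = 0.2396). In Short the log2 ratio within passages was 0.16, 0.21 and 0.20. Long and Short differed by -0.067 (95% confidence interval -0.19 to 0.058).

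*UPF2* encodes the adaptor that binds both UPF1 and UPF3 proteins. It was listed at 8.23, 8.49 and 12.15 FPKM in EV, 5.31, 6.28 and 13.27 FPKM in Short and 4.90, 6.03 and 10.21 FPKM in Long. The passage 3 library was the highest of each group, and its levels were above all libraries of passages 1 and 2, whichever the transfection. Within passages 1 and 2 both Short and Long were below EV, whereas in passage 3 Short was above EV and Long was below it. The groups therefore overlapped, and an exact permutation test of the libraries without pairing gave p = 0.3 for Long against EV, where 3 libraries against 3 cannot go below 0.1.

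Paired by passage, *UPF2* fell by 0.44 ± 0.11 (SE) on the log2 scale in Long (adjusted p = 0.04268, lower in 3 of 3 passages). The log2 ratios of FPKM within passages 1, 2 and 3 were -0.75, -0.49 and -0.25. In Short the fitted difference was -0.27 ± 0.11 (adjusted p = 0.2002), with ratios of -0.63, -0.44 and 0.13. The difference between Long and Short was -0.16 (95% confidence interval -0.42 to 0.088, adjusted p = 0.8263), so a larger decrease in Long than in Short was not shown. Averaged over groups the passages differed 1.93-fold, compared with 1.37-fold between the group means. Without the replicate block the adjusted p in Long was 0.7234, without replicate 1 it was 0.1867 and without replicate 2 it was 0.1996, whereas without replicate 3 it was 0.01613.

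*UPF3A* and *UPF3B* encode paralogous adaptors that bind the exon junction complex. *UPF3B* was listed at 12.7, 13.0 and 16.9 FPKM in EV, 10.9, 10.6 and 15.9 FPKM in Short and 9.38, 9.62 and 13.99 FPKM in Long. Within each passage the order was EV, then Short, then Long. In Long *UPF3B* fell by 0.35 ± 0.069 (SE) on the log2 scale (adjusted p = 0.01475, lower in 3 of 3 passages), with log2 ratios of -0.43, -0.44 and -0.28 within passages. In Short the difference was -0.19 ± 0.069 (adjusted p = 0.1583, lower in 3 of 3 passages). Long was lower than Short by 0.16 on average (95% confidence interval of the difference -0.32 to -0.012, unadjusted p = 0.03671, adjusted p = 0.6417), which did not pass over all genes. Passage 3 was again the highest library in each group, and the groups overlapped (exact permutation p = 0.3 for Long against EV). Without the replicate block the adjusted p in Long was 0.6581, without replicate 1 it was 0.1289 and without replicate 2 it was 0.1512, and without replicate 3 it was 0.03503.

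*UPF3A* showed smaller differences than its paralogue. Its level was 18.7, 21.2 and 20.7 FPKM in EV, 15.9, 21.0 and 20.1 FPKM in Short and 20.02, 19.2 and 19.9 FPKM in Long, and the lowest library was Short passage 1. The fitted difference was -0.094 ± 0.082 (SE) in Short (adjusted p = 0.5267) and -0.034 ± 0.082 in Long (95% confidence interval -0.22 to 0.15, adjusted p = 0.8405). The ratio of *UPF3A* to *UPF3B* within a library does not depend on how libraries are scaled. It was 1.48, 1.63 and 1.22 in EV, 1.46, 1.98 and 1.27 in Short, and 2.14, 2.00 and 1.42 in Long. In Long the log2 ratio was above EV in 3 of 3 passages, by 0.35 ± 0.16 (SD, n = 3), with an exact sign-flip permutation p of 0.25, the smallest that 3 pairs allow. Short was above EV by 0.10 ± 0.16 (SD, n = 3, exact p = 0.5) and Long above Short by 0.24 ± 0.28 (SD, n = 3, exact p = 0.25). Without replicate 1 the difference between Long and Short was 0.088, and without replicate 2 that between Short and EV was 0.015. Passage 3 had the lowest ratio of every group.

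*SMG1*, the kinase that phosphorylates UPF1, was listed at 15.5, 15.4 and 18.6 FPKM in EV, 14.9, 11.7 and 18.6 FPKM in Short and 12.0, 12.1 and 18.7 FPKM in Long. All passage 3 libraries lay within 18.57 to 18.69 FPKM, whereas passages 1 and 2 in Long were below both EV libraries of those passages. The fitted difference in Long was -0.22 ± 0.092 (SE, adjusted p = 0.1815), with log2 ratios within passages of -0.36, -0.35 and 0.0088. In Short it was -0.14 ± 0.092 (adjusted p = 0.4076), and only passage 2 was far below EV, at -0.39.

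SMG8 and SMG9 are the regulatory subunits of the kinase. *SMG8* was 12.2, 13.1 and 14.1 FPKM in EV, 14.1, 15.1 and 13.6 FPKM in Short and 12.9, 15.5 and 15.0 FPKM in Long. Its fitted difference was 0.11 ± 0.075 (SE, adjusted p = 0.3977) in Short and 0.13 ± 0.075 (adjusted p = 0.3307) in Long, and the groups overlapped. *SMG9* was 14.7, 15.1 and 14.3 FPKM in EV, 15.3, 16.6 and 16.96 FPKM in Short and 14.2, 15.4 and 16.4 FPKM in Long. All its Short libraries were above all EV libraries (exact permutation p = 0.1, the smallest possible), and the fitted difference was 0.14 ± 0.068 (SE, adjusted p = 0.2595). In Long it was 0.057 ± 0.068 (adjusted p = 0.6597), and its sign turned when every library was scaled to the same FPKM sum. *SMG9* had the narrowest range of the 9 factors, 1.19-fold from the lowest to the highest library, and *UPF2* the widest, 2.71-fold.

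*SMG6*, the endonuclease, was the only factor whose EV libraries lay below all libraries of both Short and Long. It was listed at 13.1, 12.1 and 12.3 FPKM in EV, 14.9, 14.7 and 14.3 FPKM in Short and 13.9, 15.5 and 14.7 FPKM in Long. The fitted difference was 0.21 ± 0.070 (SE, adjusted p = 0.1319) in Short and 0.22 ± 0.070 (adjusted p = 0.08684) in Long, so neither passed, and the exact permutation p was 0.1 for each, the smallest possible. Short libraries lay above all EV libraries for 2 factors (*SMG6* and *SMG9*, background 10.9%) and Long libraries for 1 (*SMG6*, background 10.5%). *SMG6* also varied least between passages, 1.03-fold, compared with 1.18-fold between groups. *SMG5*, which binds phosphorylated UPF1, was 32.6, 34.4 and 34.9 FPKM in EV, 34.3, 37.5 and 37.3 FPKM in Short and 33.0, 36.3 and 40.3 FPKM in Long. Both isoforms were above EV in 3 of 3 passages, with fitted differences of 0.096 ± 0.058 (SE, adjusted p = 0.3537) in Short and 0.10 ± 0.058 (adjusted p = 0.3265) in Long, and the groups overlapped.

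No factor passed the threshold between Long and Short. For those whose interval is not given above, the 95% confidence interval of the Long minus Short difference on the log2 scale was -0.15 to 0.16 for *SMG6*, -0.13 to 0.13 for *SMG5*, -0.15 to 0.18 for *SMG8*, -0.23 to 0.069 for *SMG9*, -0.29 to 0.12 for *SMG1* and -0.12 to 0.24 for *UPF3A*.

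The fold between passage means was larger than that between group means for 6 factors (*UPF2*, *UPF3A*, *UPF3B*, *SMG1*, *SMG5* and *SMG8*). The share of all genes tested for which this holds was not computed, so it is not shown to be particular to the factors. *UPF2*, *UPF3B* and *SMG1* were highest in passage 3 in EV, Short and Long alike, a pattern seen in 19.5% of the 13801 genes tested. *UPF1* was lowest in passage 3 in all groups, as were 27% of genes. Averaged over groups, passages differed 1.42-fold for *UPF3B* and 1.43-fold for *SMG1*, compared with 1.29-fold and 1.15-fold between groups. For *UPF3A*, *SMG5* and *SMG8* the fold between passages was 1.124, 1.125 and 1.116, and that between groups 1.07, 1.08 and 1.10. For *UPF1* it was 1.10 between passages and 1.14 between groups.

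The changes of the 9 factors went in part with the GC content of the longest annotated transcript. *UPF2*, *UPF3B*, *UPF3A* and *SMG1*, whose longest transcripts had a GC content of 40.3%, 41.3%, 41.8% and 43.1%, all had fitted differences below 0 in both Short and Long. *SMG8* (47.8%), *SMG9* (55.2%), *SMG6* (55.3%), *SMG5* (57.6%) and *UPF1* (60.4%) all had fitted differences above 0. Under alternative settings the sign turned for *SMG9* in Long (equal FPKM sums, GC correction and without replicate 3), *SMG5* in Short (GC correction) and *UPF3A* in Long (GC correction and without replicate 2). With equal FPKM sums all differences above 0 became smaller, such as 0.043 for *UPF1* and 0.026 for *SMG5* in Long, and 0.014 for *SMG5* and 0.033 for *SMG8* in Short. Those below 0 moved further from 0, such as -0.50 for *UPF2* and -0.42 for *UPF3B* in Long. The median over genes tested was 47.8%. The place of *UPF3A* depends on the sequence used, as GC content was 48.3% in its main transcript and 53.15% in its coding sequence. Spearman's rho and the GC correction used the longest transcript only. Across the 9 factors Spearman's rho between GC content and the log2 fold change was 0.85 in Short and 0.80 in Long, and across the 13398 genes tested with an annotated transcript it was 0.62 and 0.52. Genes share their libraries and are not independent replicates. Between Long and Short rho was 0.38 across the factors and 0.037 across all genes.

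*UPF2*, *UPF3B* and *SMG1* were lower than most genes of like base composition, and *SMG6* was higher than most. In Long the 1513 genes with a GC content of 40 to 42.5% had a median log2 fold change of -0.043, with quartiles of -0.17 and 0.043, compared with -0.44 for *UPF2* and -0.35 for *UPF3B*. The 1440 genes with a GC content of 42.5 to 45% had a median of 0.018 and quartiles of -0.069 and 0.083, compared with -0.22 for *SMG1*. For the 959 genes with a GC content of 55 to 57.5% the upper quartile was 0.17 in Short and 0.15 in Long. *SMG6* was at 0.21 in Short and 0.22 in Long. When the curve of the values against GC content was removed in each library, the differences in Long were -0.31 for *UPF2* (adjusted p = 0.1813) and -0.27 for *UPF3B* (adjusted p = 0.05194), and no factor passed the threshold. Other differences shrank more. That of *UPF1* went from 0.18 to 0.062 in Short and from 0.12 to 0.031 in Long, *SMG5* from 0.10 to 0.019 in Long, *SMG9* from 0.14 to 0.040 in Short and *SMG6* from 0.21 to 0.11 in Short, whereas *SMG1* in Long was -0.20. A similar correction for transcript length moved *SMG1*, the longest transcript of the 9, to -0.052 in Long and -0.057 in Short. Under the GC correction 164 of the 13801 genes passed in Long, compared with 1148 without any correction and 1373 with the length correction.

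**Figure D3:**
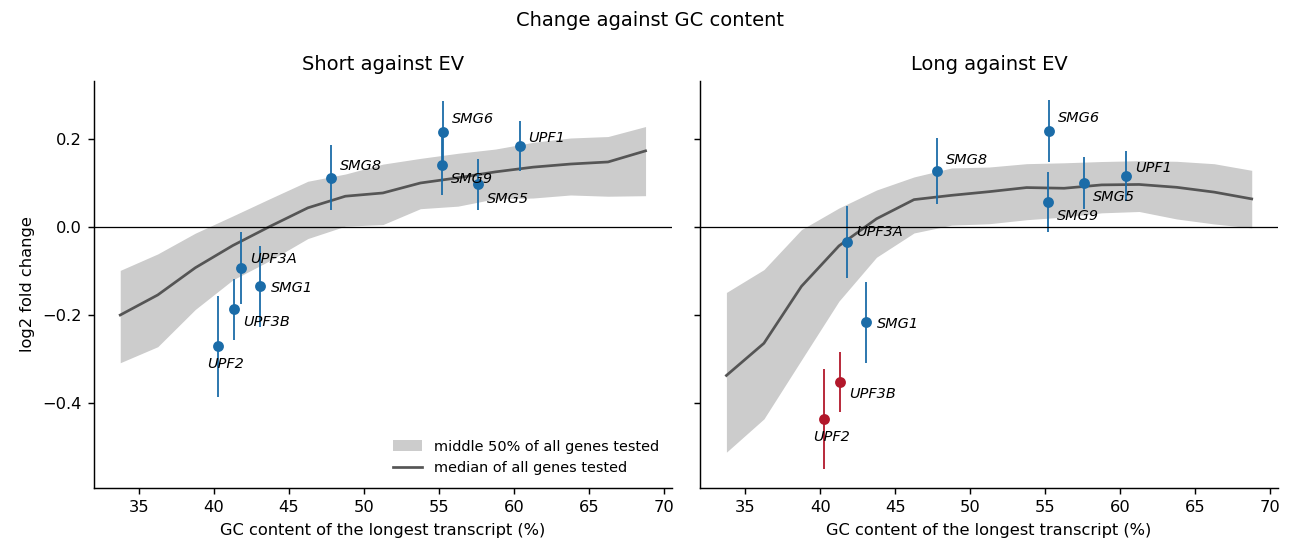
Fitted log2 fold change against EV (y axis) by the GC content of the longest annotated transcript in % (x axis) for the 9 NMD factors in Short and Long. Points are factors with their SE, red where the adjusted p was under 0.05, and the line and grey band are the median and middle 50% of all genes tested in steps of 2.5% GC. *UPF2*, *UPF3B* and *SMG1* lie below the grey band in both panels, and *SMG6* lies above it in both.

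Other genes of the pathway were examined from lists. Of 14 matched NMD and mRNA decay factors, 4 passed the threshold in Long, 2 higher and 2 lower, where 8.32% of all genes passed (1.99% higher and 6.33% lower). *XRN1*, the 5′ to 3′ exonuclease that degrades decapped mRNA, fell by 0.57 ± 0.14 (SE) on the log2 scale (adjusted p = 0.03616, lower in 3 of 3 passages). It was 10.7, 8.88 and 13.0 FPKM in EV and 4.46, 6.33 and 11.2 FPKM in Long, again with the highest level in passage 3. *DCP2*, the decapping enzyme, fell by 0.35 ± 0.075 (adjusted p = 0.02053), from 22.5, 20.1 and 22.7 FPKM in EV to 17.6, 14.3 and 18.9 FPKM in Long, with no overlap. *DHX34*, a helicase that promotes UPF1 phosphorylation, rose by 0.33 ± 0.066 (adjusted p = 0.01587), from 10.3, 10.2 and 12.9 FPKM to 12.6, 13.5 and 16.8 FPKM. *RUVBL2*, an ATPase found with SMG1, rose by 0.18 ± 0.047 (adjusted p = 0.04024), from 132.6, 122.7 and 120.0 FPKM to 141.7, 142.7 and 141.3 FPKM. The longest transcripts had a GC content of 37.3% for *XRN1*, 37.1% for *DCP2*, 61.5% for *DHX34* and 61.4% for *RUVBL2*. After the correction for GC content the differences were -0.32, -0.092, 0.24 and 0.096, and none of the 4 passed. All 4 calls were also lost without the replicate block, without replicate 1 and without replicate 2, those of *DHX34* and *RUVBL2* also without replicate 3, and *RUVBL2* with either other scaling of the libraries. None of the 4 passed with no filter on low values, *XRN1* and *RUVBL2* not with the groups compared alone or without a trend, and *DCP2*, *XRN1* and *RUVBL2* not with the length correction. Without replicate 1 the difference of *XRN1* was -0.31.

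Among the others of that list, *EDC4*, a scaffold of the decapping complex, had a difference of 0.18 ± 0.065 (SE, adjusted p = 0.1161). The median log2 fold change of the 14 genes was 0.064 in Long and 0.085 in Short. In Short 0 of 14 passed, where 0.0362% of all genes did. At an unadjusted p under 0.05, 5 of 14 were higher and 3 lower in Short, where 15.2% and 6.88% of all genes were. *DHX34* in Short was above EV in every library, by 0.37 ± 0.066 on the log2 scale (adjusted p = 0.1095), and *DCP2* was below EV by 0.29 ± 0.075 (adjusted p = 0.1095).

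None of the 8 matched genes of the exon junction complex, which marks splice junctions for NMD, passed in Long or in Short. The shares of all genes tested were 8.32% in Long and 0.0362% in Short. At an unadjusted p under 0.05, 3 of 8 were higher in each, where 12.4% of all genes were in Long and 15.2% in Short. Their median log2 fold change in Long was 0.10. The 2 highest and 2 lowest were *PYM1*, which takes the complex apart (0.18 ± 0.082, SE), the core gene *CASC3* (0.15 ± 0.054), *SAP18* (0.065 ± 0.052) and the core gene *MAGOH* (0.025 ± 0.069), with adjusted p between 0.1203 and 0.866. None of 5 translation termination genes passed in Long (background 8.32%) or in Short (background 0.0362%), with a median of 0.15 in Long. At an unadjusted p under 0.05, 2 were higher in Long (background 12.4%) and 1 in Short (background 15.2%). The poly(A)-binding protein gene *PABPC1* was at 459.7, 427.4 and 375.0 FPKM in EV and 501.4, 448.4 and 470.2 FPKM in Long, higher by 0.17 ± 0.051 (SE, adjusted p = 0.06285). The release factor genes *ETF1*, *GSPT1* and *GSPT2* had differences of 0.051, -0.0045 and 0.155 with adjusted p between 0.4733 and 0.9764.

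Of 15 listed genes with transcripts that NMD is known to degrade, none passed in Long or in Short. Of all genes tested, 8.32% passed in Long and 0.0362% in Short. The list leaves out *SMG5* and *UPF3B*, named above as known substrates. At an unadjusted p under 0.05, 3 of 15 were higher and 1 was lower in Long, where 12.4% and 12% of all genes were, and 1 was higher in Short, where 15.2% were. Their median log2 fold change was 0.071 in Long and 0.081 in Short. The noncoding host gene *GAS5*, whose spliced RNA is a well-known substrate, was 173.1, 186.0 and 145.6 FPKM in EV and 176.6, 184.7 and 149.7 FPKM in Long, a difference of 0.019 (95% confidence interval -0.079 to 0.12). *BAG1* and *TBL2* had the highest values of the log2 fold change in Long, 0.15 ± 0.056 (SE, adjusted p = 0.1262) and 0.15 ± 0.064 (adjusted p = 0.1788). *SC5D*, a sterol synthesis enzyme gene, and the stress factor gene *ATF3* had the lowest, at -0.34 ± 0.11 (adjusted p = 0.07901) and -0.078 ± 0.072 (adjusted p = 0.5496). No gene of any of these lists passed between Long and Short, and 1 substrate gene was lower at an unadjusted p under 0.05. FPKM per gene sums substrate and other isoforms, so these values do not measure NMD activity on any single transcript.

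**Figure D4:**
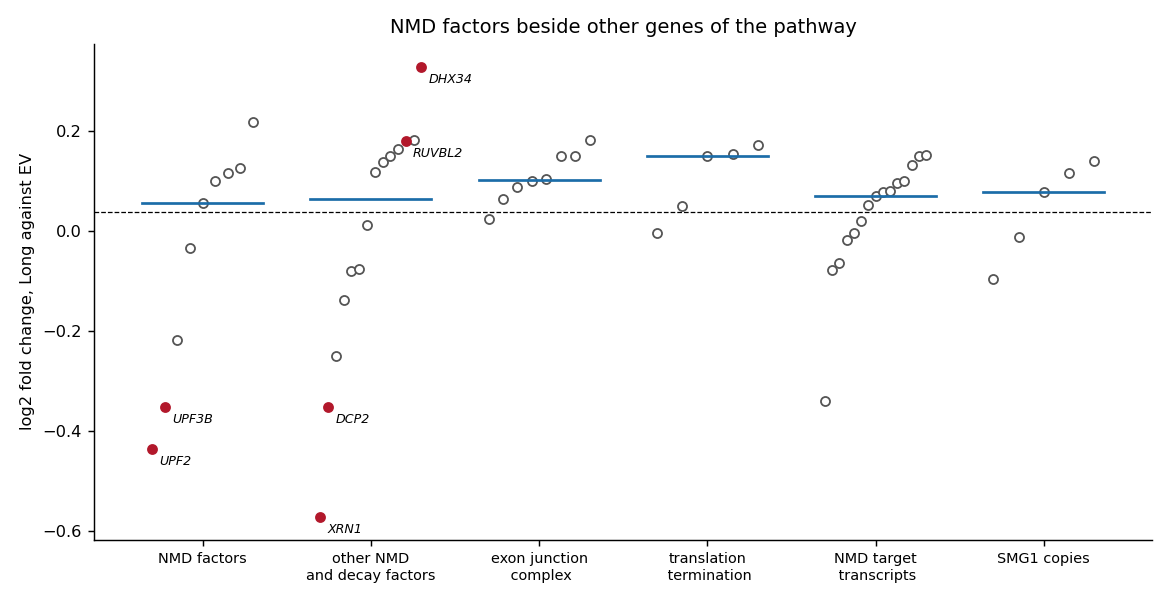
Fitted log2 fold change of Long against EV (y axis) for the NMD factors and 5 lists of related genes (x axis), 1 circle per gene in order of its value within each list, filled red where the adjusted p was under 0.05. Blue lines are list medians and the dashed line is the median of all genes tested (0.039). Filled genes appear only among the NMD factors (*UPF2* and *UPF3B*) and the other NMD and decay factors (*XRN1*, *DCP2*, *DHX34* and *RUVBL2*).

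Each matched *SMG1P* copy taken alone was below *SMG1*, but the copies together were not compared with it. *NPIPB4* and *NPIPB5*, which each share windows with *SMG1*, averaged 12.2 and 12.9 FPKM over the 9 libraries. The 6 matched copies were listed at 0.787 to 7.69 FPKM, with *SMG1P5* the highest, and 5 of them were tested. None passed in Long or in Short, where 8.32% and 0.0362% of all genes did. At an unadjusted p under 0.05, 0 were called in Long (background 12.4% higher and 12% lower). In Short 1 was higher (*SMG1P1*, at 0.45 ± 0.16, SE, adjusted p = 0.1422, background 15.2%). In Long *SMG1P1* and *SMG1P6* had the highest log2 fold changes, 0.14 and 0.12, and *SMG1P4* and *SMG1P5* the lowest, -0.096 and -0.011. None of the 6 was highest in passage 3 in Long, where *SMG1P5* was 5.94, 7.69 and 6.65 FPKM in passages 1, 2 and 3, but *SMG1P3* was highest in passage 3 in EV and Short (4.02 and 4.52 FPKM), and *SMG1P5* in EV (7.003 FPKM).

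The longest transcripts of *UPF1* and *UPF2* had a GC content of 60.4% and 40.3%. The 3 genes whose levels followed each most closely over the 9 libraries are named with their GC content, and a wider relation was not tested. For *UPF1* they were *DBNDD1*, *RNF26* and *PAK4* (Pearson's r of log2(FPKM + 1) of 0.982, 0.981 and 0.979), with a GC content of 58.8 to 61.2%. For *UPF2* they were *ZUP1*, *NEMF* and *ZNF350* (0.990, 0.988 and 0.980), with a GC content of 36.6 to 42.6%. Within the factors, *UPF2* followed *UPF3B* (r = 0.961) and *SMG1* (0.875), *UPF1* followed *SMG6* (0.801), and *UPF1* and *UPF2* ran in opposite directions (-0.702). These coefficients describe 9 libraries that share 3 passages and 3 groups.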

How the data were processed

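Strand-specific polyadenylated RNA libraries of HEK293 cells were analysed as 3 groups of 3 (EV, Short, Long), grouped by the sample labels. The authors aligned reads with TopHat (version 1.4.1), first to Ensembl transcripts and the rest to hg19, and deposited 1 FPKM value for each Ensembl gene in each library. The submitters' processing notes also name Cufflinks. FPKM is relative to mapped fragments, so very abundant transcripts such as the plasmid's can lower other values. The median log2 fold change of all genes tested against EV was 0.041 in Short and 0.039 in Long. With equal FPKM sums it was -0.033 and -0.028, and with median ratio scaling -0.0095 and -0.0010. An effect of the plasmid's transcripts on other values was not tested. No counts were given, so depth is unknown and no counting intervals were computed. Whether strand was used in counting is not given in the sources used here.

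Names, transcripts, GC content and sequences came from GENCODE on GRCh37 (87.2% of genes named, 97.1% of tested genes with a transcript). log2(FPKM + 1) was fitted for the 13801 genes that averaged at least 1 FPKM with limma (version 3.58.1, lmFit and eBayes with an intensity trend, R version 4.3.3), with group and replicate number as terms and Benjamini-Hochberg adjustment (threshold 0.05). Fold changes on this scale understate those of low genes. Per the study's methods each transfection was repeated across cell passages. Deviations from the group means correlated by 0.33 to 0.81 in the 9 pairs of libraries with the same number (mean 0.55). In the 18 other pairs they correlated by -0.63 to 0.37 (mean -0.26), so the ranges overlapped. EV passage 1 with Short passage 2 gave 0.37, and EV passage 2 with Short passage 2 gave 0.33. Deviations sum to 0 within each group, so the 2 means are not separate support. Numbers were taken as pairs. Percent changes and passage ratios are of FPKM without a pseudocount. The ratio of *UPF3A* to *UPF3B* and single genes were compared with two-sided exact permutation tests (scipy version 1.17.1). Simulated data with known changes were used to check that the fit ran as intended. Those changes were larger than any of the 9 factors, so they do not bear on calls of the size reported here.

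The members, lists and tests were chosen with earlier results of these data known. Named genes were all members, *ADARB1*, the 2 highest and 2 lowest of each list by Long against EV, list genes that passed, and the 3 genes most correlated with *UPF1* and with *UPF2*. *GAS5*, *KRT8*, the other markers, and *DHX34* and *DCP2* in Short were added as members of lists after their values were seen. *DCP1A*, *RBM8A*, *SMG1P7*, *NEFL* and *PECAM1* were not matched in the table. The values of 1 gene of the lists are not reported here. Alternatives were a pseudocount of 0.1, equal FPKM sums (TPM), median ratio scaling, no replicate block, the compared groups alone, no trend, no filter, a minimum mean of 5 FPKM, each replicate left out, and loess corrections (span 0.3) for GC content or transcript length. RNA editing, ribosome profiling and proteomic data were not analysed here.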

Additional observations from a re-analysis of the deposited data

How the results depend on the processing

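The count of 2 factors lower in Long than in EV held under 7 of 13 alternatives and was 0 with no replicate block, 1 with eBayes without a trend (*UPF3B*), 0 with no filter on low values and 0 with the GC correction with the replicate block. With 1 replicate left out it ranged from 0 to 2, and was 0 without replicate 1 and without replicate 2. Over the alternatives the log2 fold change in Long was -0.54 to -0.31 for *UPF2* (adjusted p 0.01613 to 0.7234, passed in 7 of 13) and -0.42 to -0.27 for *UPF3B* (0.006872 to 0.6581, passed in 8 of 13). *SMG6* in Long passed in 1 of 13, with the length correction (0.26, adjusted p = 0.03816). The counts of 0 factors in Short against EV and in Long against Short, and the direction of the *UPF3A* to *UPF3B* ratio, were the same under every alternative, and no other call of the 9 factors changed with the block. The sign turned, in values far from the threshold, for *SMG5* in Short with the GC correction (-0.011), for *UPF3A* in Long without replicate 2 (0.017, range with 1 replicate left out -0.097 to 0.017) and with the GC correction (0.029), and for *SMG9* in Long with TPM scaling (-0.014), without replicate 3 (-0.010, range to 0.107) and with the GC correction (-0.025). For Long against Short it turned for *UPF3A* without replicate 1 (range -0.069 to 0.149), *SMG1* without replicate 1 (-0.144 to 0.024), *SMG1* with the length correction (0.0049), *SMG6* without replicates 2 and 3 (-0.030 and -0.012, range to 0.054), *SMG5* without replicate 3 (-0.049 to 0.032) and *SMG8* without replicate 3 (-0.043 to 0.082). The 1148 genes that passed in Long against EV became 2 with no replicate block, 646 without a trend, 752 with the groups alone, 1 with no filter on low values (27356 genes tested), 164 with the GC correction, 2 without replicate 1, 100 without replicate 2 and 1031 without replicate 3. In Short against EV the 5 genes became 2 with no block, 3 without a trend, 1 with no filter, 3 with a minimum mean of 5 FPKM, 3 with the GC correction, and 2, 6 and 59 without replicates 1, 2 and 3. In Long against Short the 1 gene became 0 with no block, no trend or no filter, 3 with the groups alone, and 0, 3 and 9 without replicates 1, 2 and 3. The cause of these differences was not tested.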
